A study of Mus musculus with 3 samples.

Results

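*Hilpda* and 8 other genes of the hypoxia response, *Hif1a*, *Vegfa*, *Bnip3*, *Egln3*, *Egln1*, *Adm*, *Ndrg1* and *Ero1l*, were followed by gene symbol among the 27998 genes counted in single cells from 3 tissues. All 9 were found once in the files. They were picked with their values in view, because *Hilpda* is among the genes most raised in neutrophils of the tendon injury site over those of the blood, so that contrast is described here and nothing is concluded from it. The libraries came from male C57BL/6J mice, 10 weeks old, that had received a burn of the back and an Achilles tenotomy (burn/tenotomy), a model of heterotopic ossification (HO), and were sampled on day 3. Bone marrow was flushed from femurs, blood was taken from the mononucleated layer of a Ficoll gradient, and tissue of the tendon injury was dissociated enzymatically at 37C. The cells were unsorted, each tissue gave 1 library on the 10x Genomics 3′ v3 platform, all 3 tissues came from injured animals, and no uninjured sample was analysed here.

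Hypoxia-inducible factor (HIF) is a pair of transcription factor subunits. Its alpha subunit, encoded by *Hif1a* and its relatives, is made constantly and destroyed when oxygen is present, because prolyl hydroxylases such as *Egln1* and *Egln3* mark it for the proteasome. When oxygen falls, or when inflammatory signals stabilize the subunit, HIF raises genes for glycolysis, blood vessel growth, mitophagy and lipid storage, and myeloid cells are known to depend on it at inflamed, poorly perfused sites. *Hilpda* encodes a small lipid droplet protein that inhibits the triglyceride lipase *Pnpla2* (ATGL), as does the related *G0s2*. Because *Hif1a* is regulated largely at the protein level, its transcript is not a readout of HIF activity.

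HIF binds a short core, ACGTG or GCGTG, which was searched on both strands of RefSeq promoters (GRCm38.p6) from 250 bases before to 50 after each start. CACGTG holds a core on each strand and was counted as 2. Promoters were matched for 8 of the 9 members (*Ero1l* under its newer symbol *Ero1a*), in 10 windows of which 9 held a core and 7 held 2 or more. Among all 32851 promoters of that length, 43.8% held at least 1 core, 20.6% at least 2 and 8.93% at least 3. The windows around cores follow for *Hilpda*, whose second annotated start has 3 of them, and for 4 other members, with the core in capitals and each sequence read 5′ to 3′ on the strand of its gene.
*Hilpda*, chr6:29272503-29272531, plus strand: caaccgcgagccGCGTGctttccgtgact
*Hilpda*, chr6:29272571-29272599, plus strand: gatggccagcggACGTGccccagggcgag
*Hilpda*, chr6:29272606-29272634, plus strand: caggttcggtacGCGTGcgcagtctccga
*Bnip3*, chr7:138909525-138909553, minus strand: ggctccgccgccGCGTGcgtcccgccccg
*Egln3*, chr12:54204087-54204115, minus strand: tgtgcatctcagACGTGagatccaggttt
*Egln1*, chr8:124949306-124949334, minus strand: gggccgtggtgtACGTGcagcgcgcgcgg
*Ero1l*, chr14:45318684-45318712, minus strand: ccggaggcgggtGCGTGagcggggcgcgc
A match is a run of letters and does not show a bound site. In the GENCODE annotation of GRCm38 the *Hilpda* gene spans chr6:29272488-29275446 on the plus strand, and all 3 of its windows lie inside it, around the second of its annotated starts. Of genes overlapping a member that are counted in the files, *Gm17035*, antisense to *Ndrg1*, held 9 unique molecular identifiers (UMIs) over all libraries, and *Gm28863*, antisense to *Adm*, held 0.

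After removal of poor barcodes and likely doublets, 1813 marrow, 2146 blood and 4780 tendon cells remained, from libraries of 49580625, 22542581 and 90621052 UMIs. The libraries shared between 1 and 6 barcodes in pairs. Clusters were named from marker genes, giving neutrophil-like cells in all 3 libraries (807 in marrow, 387 in blood, 560 in tendon) and monocyte/macrophage-like cells in all 3 (207, 445 and 1659). All 19 neutrophil markers in the files were detected in the neutrophil-like cells of each library. Detection alone does not set the classes apart, since all 19 were also detected in monocyte/macrophage-like cells of blood and tendon. Per 1000000 UMIs, the 19 markers together held 514751 in marrow, 380320 in blood and 203604 in tendon neutrophil-like cells. In monocyte/macrophage-like cells they held 9435, 4630 and 1151. These markers also served to name the clusters. The tendon library also held dendritic-, endothelial-, keratinocyte-, mesenchymal-, mural- and Schwann-like cells. In tendon, 2 clusters of 362 and 422 cells carried monocyte/macrophage markers but also leading genes of other classes and were kept apart, and 1 cluster of 192 cells led by muscle genes and *Acp5* stayed unnamed. A level is given as CPM, a gene's share of the class's UMIs times 1000000, with an exact 95% Poisson interval in brackets. With 1 library per tissue there is no test between tissues, the intervals cover counting error only, and tissue, preparation and library cannot be told apart. Levels of different genes were not compared.

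*Hilpda* was highest in the neutrophil-like cells of the tendon. These cells held 914 *Hilpda* UMIs, or 407 CPM [381, 435]. Blood neutrophil-like cells, all from the mononucleated layer, held 2 UMIs, or 0.552 CPM [0.0668, 1.99]. Blood neutrophils outside that layer were not measured. Marrow neutrophil-like cells held 1 UMI, or 0.0664 CPM [0.00168, 0.37]. These 3 UMIs came from all neutrophil-like cells outside the tendon. The median neutrophil-like cell held 18071 UMIs in marrow and 8508 in blood, against 3492 in tendon. Over all kept cells the median was 22893 in marrow, 8360.5 in blood and 12177.5 in tendon. Every named tendon class of at least 50 cells lay above every named class of that size in blood and marrow. Among tendon classes, neutrophil-like cells and the 47 basophil/mast-like cells (367 CPM [295, 452], some of them with *Gzma* and *Nkg7*) had overlapping intervals at the top. They were followed by dendritic-like cells at 264 CPM [240, 289] and monocyte/macrophage-like cells at 186 CPM [181, 192], whose intervals overlapped no neighbour. Mural-like (63.3 CPM) and endothelial-like cells (54.3 CPM) did not differ beyond their intervals, nor did mesenchymal-like (41.8 CPM) and Schwann-like cells (31.0 CPM), or Schwann-like and keratinocyte-like cells (21.2 CPM). In blood, T-like cells held 12.6 CPM [10, 15.6], B-like cells 9.36 CPM, monocyte/macrophage-like cells 6.09 CPM [4.46, 8.13] and NK-like cells 3.82 CPM, each overlapping the next in order.

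**Figure D1:**
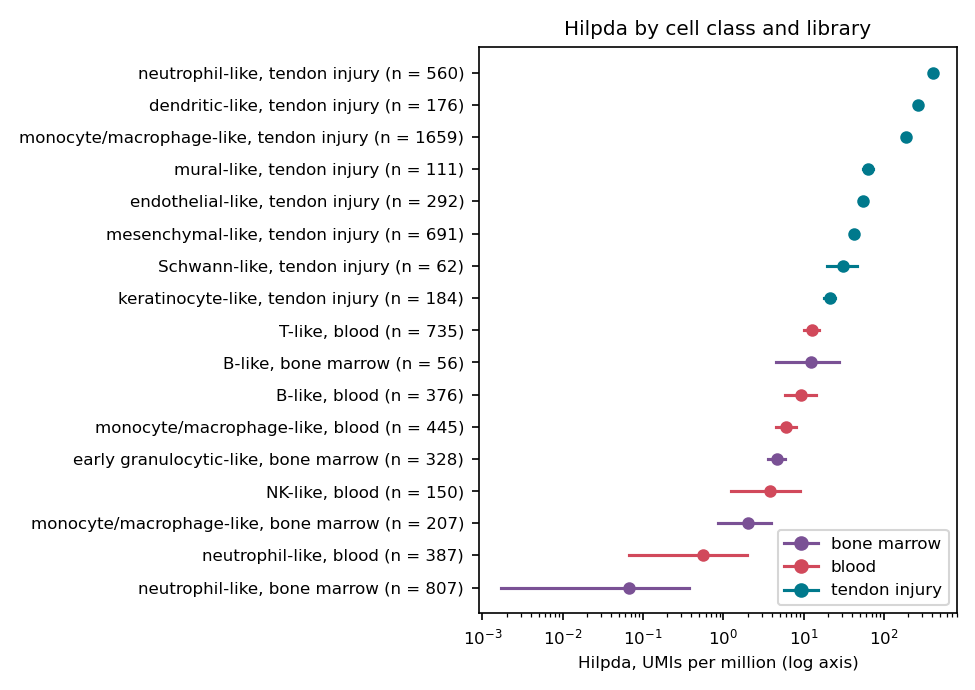
*Hilpda* level (CPM, log axis) in every named class of at least 50 cells, coloured by library, with exact 95% Poisson intervals as lines and the number of cells in brackets. The tendon classes run from 21.2 to 407 CPM, and the highest class of another library lies at 12.6 CPM.

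Although neutrophil-like cells had the highest level, they did not hold most of the transcript. Of 10119 *Hilpda* UMIs in tendon cells, monocyte/macrophage-like cells held 39.6%, mesenchymal-like cells 10.7% and neutrophil-like cells 9.03% (95% Clopper-Pearson interval 8.48 to 9.61), from 11.7% of the cells and 2.66% of all UMIs. A further 16.6% came from the separate cluster of 422 cells led by *Arg1*, *Ppbp* and *F7*. Per cell, tendon neutrophil-like cells carried 1.63 *Hilpda* UMIs and monocyte/macrophage-like cells 2.41, so the order by UMIs per cell was the reverse of the order by CPM. A *Hilpda* UMI was seen in 49.1% of tendon neutrophil-like and 54.4% of tendon monocyte/macrophage-like cells at their own depths. With every cell thinned to 1000 UMIs, which left out 21 neutrophil-like and 7 monocyte/macrophage-like cells, the shares were 26.3% [22.7, 30.3] and 15.3% [13.6, 17.1], in the same order as the CPM. The thinned share was 3.77% in mesenchymal-like and 2.75% in mural-like cells. It was 0 of 384 blood and 0 of 802 marrow neutrophil-like cells, which at that depth allows shares of cells with a UMI of up to 0.781% and 0.374%. At their own depths, 2 of 387 blood cells (0.517%, interval up to 1.85%) and 1 of 807 marrow cells (0.124%, up to 0.688%) had one. No class can be named that surely lacks *Hilpda*, so its free RNA could not be gauged. The counts of *S100a8*, a calprotectin subunit abundant in neutrophils, are given beside it. Tendon monocyte/macrophage-like cells held 5631 *S100a8* UMIs beside 4006 of *Hilpda*, while neutrophil-like cells held 164275 beside 914. Endothelial-like cells held 257 *S100a8* beside 459 *Hilpda* UMIs. The proportions in both classes differed from that in neutrophil-like cells, but *S100a8* was also at 2294 CPM in blood monocyte/macrophage-like cells. What part of the *Hilpda* UMIs in either class came from neutrophils was not tested. Free *Hilpda* RNA from other cells, and its part in the neutrophil-like level, was not tested.

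**Figure D2:**
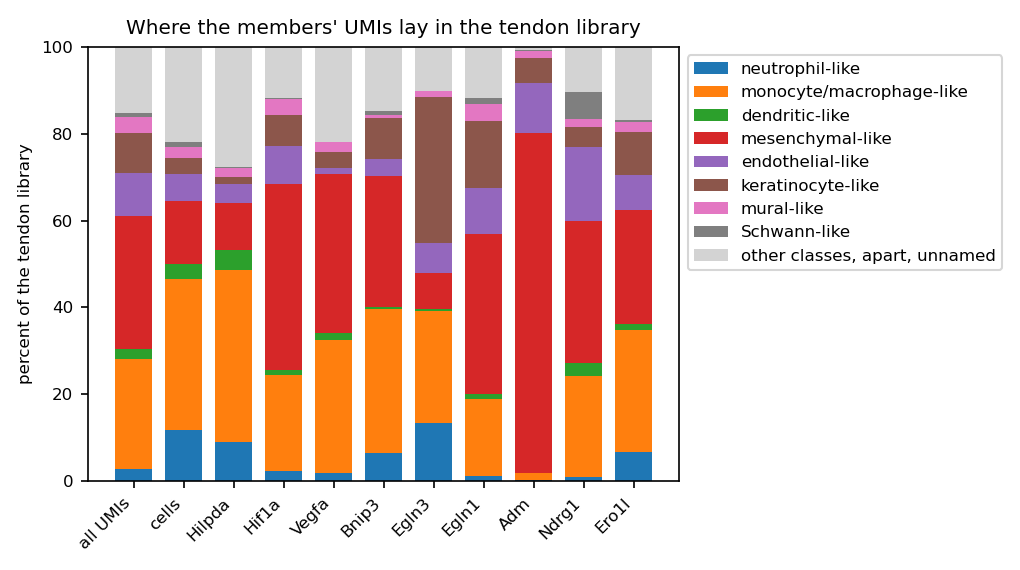
Share of each member's UMIs in the tendon library that lay in each class, with the shares of all UMIs and of cells in the first 2 bars. Neutrophil-like cells (bottom segments) hold 9.03% of *Hilpda* and 13.2% of *Egln3* but 0.113% of *Adm*, and mesenchymal-like cells hold 78.4% of *Adm*.

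Among tendon and blood neutrophil-like cells, 5 of the 8 members with at least 20 UMIs in the 2 groups together were at least 2-fold higher in tendon (log2 ratio of CPM of 1 or more) and 0 were as much lower. Of all 6714 genes with as many UMIs, 17.4% were as much higher and 14.9% as much lower. The members' median log2 ratio was 1.40, against -0.02 over all genes, and since they were chosen on this contrast these counts describe the choice. The transcription factor subunit *Hif1a* was at 138 CPM [126, 151] in blood and 245 CPM [225, 266] in tendon, a log2 ratio of 0.83 [0.65, 1.01]. Of its hydroxylases, *Egln3*, itself a HIF target, was at 15.4 and 37.0 CPM (1.26 [0.75, 1.78]), and *Egln1* was at 16.8 and 26.7 CPM (0.67 [0.13, 1.21]). *Vegfa*, the principal growth factor for blood vessels, was at 4.69 CPM (17 UMIs) in blood and 37.9 CPM (85 UMIs) in tendon, a log2 ratio of 3.01 [2.25, 3.86]. The second secreted ligand, the vasodilator peptide adrenomedullin (*Adm*), was nearly absent, with 2 UMIs in tendon and 0 in blood and marrow neutrophil-like cells, and no ratio is given. Among effectors, *Ero1l*, an oxidase that forms disulfide bonds in the endoplasmic reticulum, had a log2 ratio of 2.04 [1.66, 2.43] and the mitophagy receptor *Bnip3* one of 1.53 [1.20, 1.88]. *Ndrg1*, a stress-responsive protein known for its part in myelin upkeep, was at 22.6 and 31.6 CPM (0.48 [0.01, 0.96]). *Hilpda* had by far the largest log2 ratio of the members, 9.53 [7.67, 12.58], with a wide interval set by its 2 blood UMIs. These ratios compare shares of the UMIs of neutrophil-like cells, not UMIs per cell. Per cell, tendon held fewer UMIs than blood for *Hif1a* (0.98 and 1.29), *Egln1* (0.107 and 0.158) and *Ndrg1* (0.127 and 0.212). The values were close for *Egln3* (0.148 and 0.145). They were higher in tendon for *Bnip3* (0.371 and 0.3), *Ero1l* (0.3625 and 0.207), *Vegfa* (0.152 and 0.0439) and *Hilpda* (1.63 and 0.00517). Against marrow neutrophil-like cells, in a comparison that shares the tendon cells, 7 of 8 members were at least 2-fold higher and 0 as much lower, where 20.6% of 8599 genes were higher and 22.4% lower. There *Hilpda* was at 12.58 [10.10, 17.89], *Bnip3* at 3.15, *Hif1a* at 2.71, *Egln3* at 2.45 and *Vegfa* at 2.27. The exception was *Ero1l* at 0.40 [0.17, 0.61], a value for the marrow class as a whole. In the marrow clusters pooled here *Ero1l* was at 11.1, 12.6, 31.4, 100 and 116 CPM, against 90.5 CPM [78.5, 104] in tendon. Ratios of tendon to single marrow clusters were not taken.

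Monocyte/macrophage-like cells gave a second contrast of tendon with blood. It rests on the same tendon and blood libraries, and the members were chosen with earlier results known, so it is not independent of the choice. Here 7 of 9 members were at least 2-fold higher and 0 as much lower, where 17.2% of 11496 genes were higher and 12.8% lower, and the members' median was 1.76, the lower limit that the floor of 3 counts sets for *Adm*, against -0.05 over all genes. *Vegfa* stood out, with 1 UMI among 445 blood cells and 1389 among 1659 tendon cells (0.132 and 64.6 CPM, log2 ratio 8.93 [6.45, 14.23]). *Hilpda* went from 6.09 to 186 CPM (46 and 4006 UMIs, 4.93 [4.52, 5.39]). *Hif1a* was at 77.2 CPM in blood and 244 CPM in tendon (1.66 [1.53, 1.78]), a level in tendon like that of the neutrophil-like cells. *Bnip3* (1.93 [1.63, 2.25]) and *Egln3* (2.14 [1.32, 3.08]) were higher, but single clusters held most of the *Egln3* UMIs on both sides. In tendon, 120 of 163 came from a cluster of 391 cells led by *Il10* and *Arg1*, and in blood, 9 of 13 came from a cluster of 37 cells led by *Prg4* and *Cd5l*. That blood cluster also led with *C1qc*, *C1qa* and *Timd4* and held 149 of the 151 *Arg1* UMIs of its class. It held 1118960 of the 7550725 UMIs of the class and so enters every ratio given here. Only *Egln3* was recomputed without it. The log2 ratio of *Egln3* was 0.57 [-0.35, 1.59] without the tendon cluster, 3.61 [2.22, 5.50] without the blood cluster and 2.04 [0.58, 3.98] without both. *Adm* was found in tendon only, with 29 UMIs against 0, at least 3.39-fold higher on a floor of 3 counts over the blood cells. *Ndrg1* was 2.01-fold higher (39.6 and 79.5 CPM, log2 interval 0.83 to 1.19), at the 2-fold line, and *Ero1l* (0.66 [0.43, 0.89]) lay below it. *Egln1* was at 41.1 CPM in tendon and 41.5 CPM in blood (-0.01 [-0.20, 0.18]). Under 11 other ways of processing, the log2 ratio of *Ndrg1* ranged from 0.47 to 1.09 and that of *Egln3* from 0.03 to 2.89, so the count of 7 fell as low as 5.

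**Figure D3:**
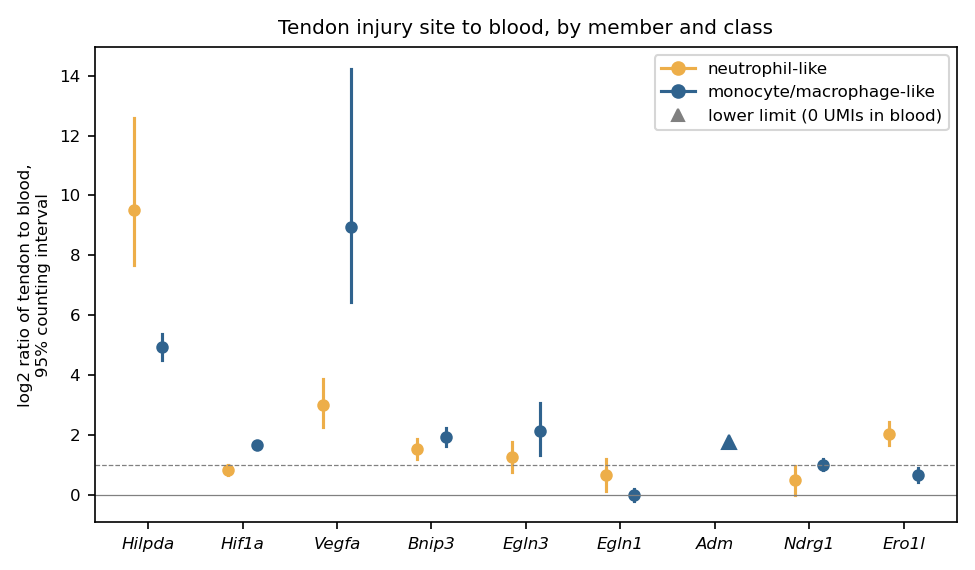
Log2 ratio of tendon to blood for each member in neutrophil-like (yellow) and monocyte/macrophage-like cells (blue), with exact 95% counting intervals. The triangle for *Adm* is a lower limit, the dashed line marks 2-fold, and *Hilpda* in neutrophil-like cells (9.53) and *Vegfa* in monocyte/macrophage-like cells (8.93) lie highest.

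Several marker lists of other cell types differed in summed level between blood and tendon. The 18 mesenchymal markers summed to 0 UMIs in blood and 382 UMIs (170 CPM, 16 markers detected, *Cilp* and *Dpt* at 0) in tendon neutrophil-like cells, and to 0.265 and 102 CPM in monocyte/macrophage-like cells. The 18 monocyte/macrophage markers summed to 581 CPM in blood and 573 CPM in tendon neutrophil-like cells, and the 12 endothelial markers to 3.86 and 16.5 CPM. Some lists were lower in tendon. In monocyte/macrophage-like cells the 19 neutrophil markers summed to 4630 CPM in blood and 1151 CPM in tendon. In neutrophil-like cells the 11 Schwann markers summed to 99.6 CPM in blood and 45.9 CPM in tendon. The 12 keratinocyte markers summed to 13.2 CPM in blood neutrophil-like cells, from 1 marker, and to 206 CPM in those of the tendon, where all 12 were detected, and to 18.7 and 136 CPM in monocyte/macrophage-like cells. The 10 megakaryocyte and platelet markers summed to 2.76 and 64.2 CPM in neutrophil-like cells (4 and 6 detected) and to 680.2 and 3996 CPM in monocyte/macrophage-like cells (3 and 7 detected). *Ppbp*, one of these markers, also led the separate tendon cluster of 422 cells that carried monocyte/macrophage markers. Whether the UMIs of these lists came from other cells or from the class itself was not tested. Immediate early and heat shock genes, which tissue digestion is known to induce, were also higher in tendon. In neutrophil-like cells 9 of 13 were at least 2-fold higher, led by *Egr1* (4.89), *Atf3* (4.58) and *Fosb* (4.36), with 0 as much lower and *Fos* at -0.68, where 17.4% of all genes were as much higher. In monocyte/macrophage-like cells 12 of 14 were, led by *Fosb* (6.36), *Egr1* (5.84) and *Hspa1a* (4.48), where 17.2% of all genes were. Over all tendon cells *Hif1a* (280 CPM), *Vegfa* (53.9), *Egln1* (59.1), *Ndrg1* (87.7) and *Adm* (21.0) lay above their levels in tendon neutrophil-like cells. *Hilpda* (120 CPM), *Bnip3* (37.7), *Egln3* (7.44) and *Ero1l* (36.3) lay below theirs. The part of digestion, or of RNA from other cells, in the members' values was not tested.

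Within the tendon, the member levels were set side by side in the 2 main myeloid classes. Of the 11201 genes compared, 10.1% were at least 2-fold higher and 53.6% as much lower in neutrophil-like than in monocyte/macrophage-like cells, and the median of all genes was shifted to -1.14 on the log2 scale. Of 9 members, 3 were higher (*Egln3* 2.29 [1.89, 2.68], *Ero1l* 1.17 [0.94, 1.39] and *Hilpda* 1.13 [1.02, 1.23]) and 1 was lower (*Ndrg1*, -1.33 [-1.69, -0.99]). The *Hilpda* value depended on the processing, from 0.99 after Seurat integration, below the 2-fold line, to 1.90 when the genes named here could be variable features, and 2.27 when centred on the median of all genes. *Hif1a* was level (0.01 [-0.12, 0.13]), *Bnip3* was at 0.92 [0.70, 1.14], *Egln1* at -0.62 and *Vegfa* at -0.77 [-1.10, -0.45]. Under 11 other ways of processing, *Vegfa* ranged from -1.07 to 0.37 and was above 0 in 3. *Egln1* ranged from -0.75 to 0.52 and was above 0 in 1. Taken relative to the shift of all genes, *Hif1a*, *Vegfa* and *Egln1* lay on the higher side in neutrophil-like cells.

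The classes were not uniform. The clusters were formed with the members left out of the variable genes, but a cluster differs in many genes that go with them, so what follows is description. Tendon neutrophil-like cells fell into a cluster of 440 cells led by *Irg1*, *Hcar2*, *Stfa2l1*, *Il1f9* and *G0s2*, and one of 120 cells led by *Retnlg*, *Prok2*, *Ly6g*, *S100a8* and *S100a9*. *Hilpda* was at 480 CPM [446, 515] in the first and 232 CPM [196, 272] in the second, so each alone exceeded the blood level (log2 ratio of the *Ly6g* cluster to blood, 8.72 [6.84, 11.77]). Between these clusters 6 of 8 members were at least 2-fold higher in the *Hcar2* cluster and 0 as much lower, where 13.9% of 4882 genes were higher and 4.81% lower. *Ero1l* differed most (1.69 [1.06, 2.39]), followed by *Egln1* (1.23), *Egln3* (1.15), *Bnip3* (1.13), *Hilpda* (1.05) and *Ndrg1* (1.02). *Hilpda* and *Ndrg1* lay at the 2-fold line. The *Ly6g* cluster held 655662 UMIs in all, and *Egln3* was seen in 12 of its 120 cells, so the count of 6 is not firm. *Hif1a* was at 0.19 [-0.09, 0.47] and *Vegfa* at 0.95 [0.13, 1.86]. Against blood, the *Ly6g* cluster passed 2-fold for 2 of 8 members, *Hilpda* and *Vegfa* (2.29 [1.18, 3.38]), with 10.8% of all genes as much higher.

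The monocyte/macrophage-like clusters differed as well. *Hilpda* was at 376 CPM [358, 394] in the cluster led by *Il10*, *Arg1*, *Tnfsf9*, *Mir155hg* and *Flrt3*, and between 107 and 144 CPM in the clusters led by *Cd163* and *Ccl8*, by *Ly6c2* and *Plac8*, by *Cd5l* and *Gpnmb*, and by *Ifit2* and *Rsad2*. A small cluster of 23 cells stood lowest, at 15.4 CPM. The separate *Arg1* and *Ppbp* cluster was at 300 CPM [286, 315], the one with *H2-Aa* and *Cd74* at 137 CPM, and the unnamed one at 161 CPM. Between the *Il10* cluster and the *Ly6c2* cluster, which leads with monocyte genes, 6 of 8 members were at least 2-fold higher and 0 as much lower (10.3% and 3.41% of 9383 genes), with *Egln3* at 2.96 [2.23, 3.79], *Bnip3* at 1.89, *Hilpda* at 1.42 and *Ndrg1*, *Ero1l* and *Vegfa* between 1.04 and 1.08. *Hif1a* was again level at 0.05 [-0.05, 0.15]. Against the *Gpnmb* cluster, which also leads with *Apoe* and *Gdf15*, all 8 members with 20 UMIs were at least 2-fold higher in the *Il10* cluster, from *Hif1a* (1.22 [1.06, 1.39]) to *Egln3* (3.73, from 5 UMIs), where 6.79% of 9222 genes were as much higher and 8.44% lower. Ratios to other clusters were not taken. Thinned to 1000 UMIs, *Bnip3* was seen in 8.18% [5.67, 11.4] of *Il10* cluster cells. It was seen in 7.95% [5.63, 10.8] of *Cd163* and 7.18% [4.89, 10.1] of *Arg1* and *Ppbp* cluster cells. The shares for *Vegfa* were 15.1%, 2.87% and 5.98% in the same order. The *Ly6c2* cluster itself, set against the blood cluster led by *Vcan*, already differed in *Vegfa* (8.67 [6.19, 13.98]), *Hilpda* (5.14 [4.53, 5.82]), *Egln3* (2.59, from 3 blood UMIs) and *Hif1a* (1.86 [1.71, 2.01]), 4 of 8 members higher and 0 lower against 8.96% and 18.4% of all genes. *Bnip3*, *Ndrg1* and *Ero1l* were between 0.35 and 0.80 in that comparison.

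**Figure D4:**
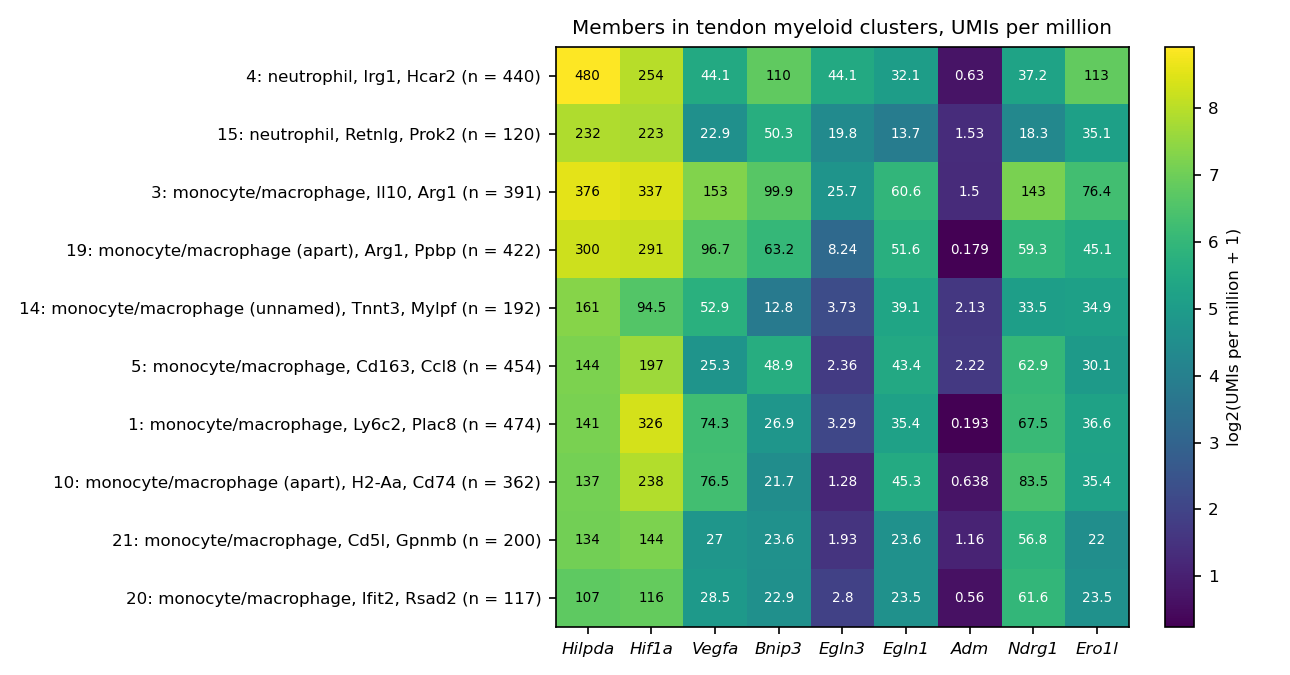
Level of each member (numbers, CPM, colour log2(CPM + 1)) in the tendon clusters of at least 100 cells whose best match was neutrophil or monocyte/macrophage, named by number, class and 2 leading genes. *Hilpda* is highest in the *Irg1* and *Hcar2* cluster (480 CPM) and the *Il10* and *Arg1* cluster (376 CPM), while *Adm* is at or below 2.22 CPM in every row.

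The class with the highest level differed from member to member. *Hif1a* was highest in tendon mesenchymal-like cells, at 393 CPM [385, 401]. *Vegfa* was as high in mesenchymal-like (64.3 CPM) as in monocyte/macrophage-like cells (64.6 CPM), and these 2 classes held 36.7% and 30.6% of its tendon UMIs. Of its receptor genes, *Flt1* (433 CPM) and *Kdr* (209 CPM) were highest in endothelial-like cells and *Nrp1* (361 CPM) in monocyte/macrophage-like cells. *Adm* was a stromal transcript, at 53.5 CPM [50.8, 56.4] in mesenchymal-like and 24.2 CPM in endothelial-like cells, and it reached 114 CPM [106, 123] in the mesenchymal cluster led by *C1qtnf3* and *Cilp*. The adrenomedullin receptor genes *Calcrl* (103 CPM) and *Ramp2* (602 CPM) were highest in endothelial-like cells. *Egln1* was highest in keratinocyte-like (98.9 CPM) and Schwann-like cells (91.7 CPM, intervals overlapping), and *Egln3* in neutrophil-like (37.0 CPM [29.5, 45.9]) and keratinocyte-like cells (27.2 CPM [23.7, 31.1]), which held 33.7% of its tendon UMIs. *Ndrg1* was at 634 CPM [578, 694] in Schwann-like cells and 149 CPM in endothelial-like cells. *Bnip3* was highest in tendon neutrophil-like cells, at 92.7 CPM [80.5, 106].

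*Ero1l* was the exception to the tendon, with its highest level in a marrow class. The 35 basophil/mast-like cells of the blood, at 148 CPM [103, 206], had an interval that overlapped that of this marrow class. Early granulocytic-like cells of the marrow, which make granule proteins such as *Elane*, held 2170 *Ero1l* UMIs, or 153 CPM [146, 159], and marrow neutrophil-like cells held 68.8 CPM [64.6, 73.1]. From marrow to blood neutrophil-like cells, each taken as a whole class, it was lower, with a log2 ratio of -1.64 [-1.99, -1.31]. *Hif1a* (1.89 [1.71, 2.06]), *Bnip3* (1.62 [1.26, 1.97]) and *Egln3* (1.19 [0.69, 1.67]) were at least 2-fold higher in blood. That made 3 of 7 members higher and 1 lower, where 13% of 8491 genes were as much higher and 17.9% lower. *Egln1* (0.79) and *Ndrg1* (0.62) were higher by less, and *Vegfa* was at -0.74, with an interval from -1.57 to just under 0. The same divergence was present inside the marrow. Between the neutrophil-like cluster led by *Il1b*, *Steap4* and *Irg1* and the one led by *St3gal5* and *Adtrp*, *Bnip3* (3.66 [2.85, 4.53]), *Hif1a* (2.89 [2.53, 3.27]) and *Egln3* (2.43 [1.62, 3.27]) were higher in the former, and *Ero1l* (-3.20 [-3.94, -2.55]) and *Vegfa* (-2.0, from 4 UMIs) were lower, 3 higher and 2 lower of 7 against 19.7% and 23.4% of all genes. The ratios of blood to marrow pool all 5 neutrophil-like clusters of the marrow, which differed in *Ero1l*. It was at 116 CPM in the *St3gal5* cluster, at 100 and 31.4 CPM in clusters of 109 and 187 cells. The *Steap4* cluster held 12.6 CPM [7.58, 19.7] and one of 137 cells 11.1 CPM [6.94, 16.8]. Both lay below blood neutrophil-like cells at 22.1 CPM [17.5, 27.5], the former with overlapping intervals. The part of this mix in the ratios was not tested. *Hilpda* was at 9.20 CPM (51 UMIs) in the early granulocytic cluster led by *Fkbp11*, *Srm*, *Ctsg* and *Mpo*, and 0 UMIs were found in 4 of the 5 neutrophil-like clusters. From early granulocytic-like to neutrophil-like cells *Hilpda* was 66 UMIs against 1 (log2 ratio of early to neutrophil-like 6.13 [3.60, 11.45]). *Egln1* (2.12), *Ero1l* (1.15) and *Vegfa* (1.13) were also at least 2-fold higher in the early cells, 4 of 8 members, where 50.4% of all genes were and the median of all genes was 1.02.

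**Figure D5:**
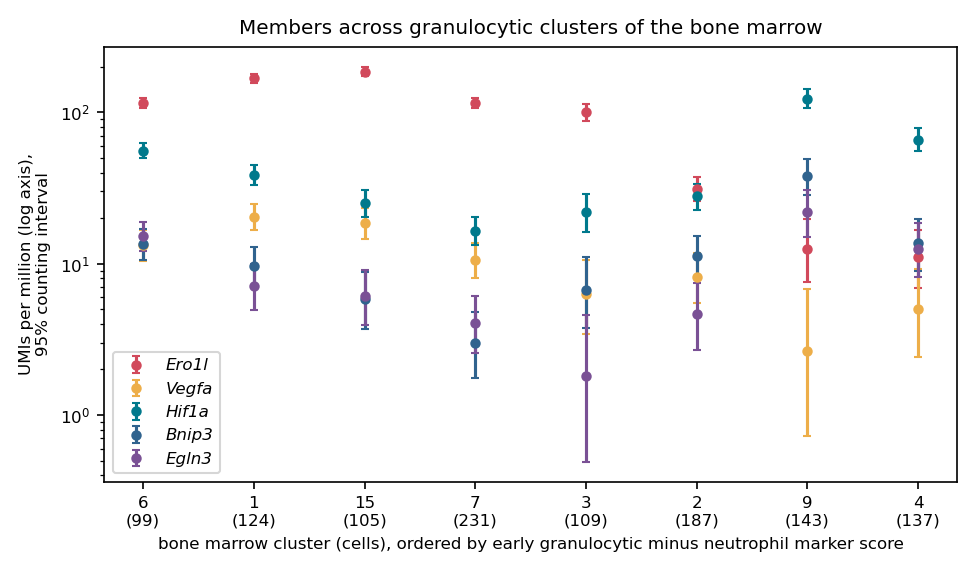
Levels of 5 members (CPM, log axis, exact 95% Poisson intervals) in the granulocytic clusters of the bone marrow, ordered from left to right by the early granulocytic minus the neutrophil marker score, with cells in brackets. *Ero1l* is at 115 to 186 CPM in the 4 clusters on the left and at 12.6 and 11.1 CPM in the last 2, where *Hif1a* is at 123 and 66.0 CPM.

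In monocyte/macrophage-like cells the marrow and blood differed little. Of 6 members, *Hilpda* was higher in blood (1.60 [0.50, 2.89], 46 and 8 UMIs) and *Ndrg1* lower (-1.04 [-1.27, -0.81]), where 6.14% of genes were as much higher and 4.09% lower. *Hif1a*, *Bnip3*, *Egln1* and *Ero1l* lay between -0.50 and 0.18, and *Vegfa* had 1 UMI in blood and 0 in marrow.

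Other textbook hypoxia targets were at least 2-fold higher in tendon for 17 of 29 in neutrophil-like cells and 24 of 40 in monocyte/macrophage-like cells, with 0 and 2 as much lower and medians of 1.97 and 1.40. Of all genes, 17.4% and 17.2% were as much higher in the 2 classes and 14.9% and 12.8% as much lower. In neutrophil-like cells the cell cycle inhibitor *Cdkn1a* (8.56, from 3 blood UMIs), the repressor *Bhlhe40* (6.07) and *Ier3* (4.53) led. In monocyte/macrophage-like cells *Ier3* (6.59) and the lipase inhibitor *Angptl4* (6.56, from 1 blood UMI) led, and *Ddit4* (-1.30) and *P4ha2* (-1.23) were lower. Several of these also respond to inflammatory signals.

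Of glycolysis genes in neutrophil-like cells, 4 of 20 were at least 2-fold higher in tendon, among them *Pfkp* (2.08), *Pfkfb3* (1.44) and the lactate transporter *Slc16a3* (1.18), 2 were as much lower, *Pfkfb4* (-1.08) and the glucose transporter *Slc2a3* (-1.01), and the median was 0.20, where 17.4% of all genes were as much higher and 14.9% lower. In monocyte/macrophage-like cells 5 of 23 were higher, led by *Slc16a1* (3.22), *Slc2a1* (1.54) and *Pfkfb3* (1.21), and 1, *Pfkfb4*, was lower (-1.04), where 17.2% of all genes were higher and 12.8% lower. The HIF subunits and regulators had medians of 0.07 and 0.09. *Cited2*, a HIF target that competes for its coactivator, was higher in both classes (1.74 and 1.34), and the ubiquitin ligase parts *Cul2* (1.28) and *Tceb1* (1.16) only passed 2-fold in neutrophil-like cells, a difference that was not tested. *Cited4* was at 10.3 CPM in blood monocyte/macrophage-like cells and had 0 UMIs in those of the tendon. Of 5 relatives of *Ndrg1*, *Bnip3* and *Ero1l*, the mitophagy receptor *Bcl2l13* was higher (1.69) and *Ndrg3* lower (-1.81, from 3 tendon UMIs) in neutrophil-like cells, and 0 passed 2-fold in monocyte/macrophage-like cells, where they lay between -0.63 and 0.23. In the HIF1 signaling list used by the study, 7 of 19 and 11 of 27 genes were at least 2-fold higher, with 0 and 3 as much lower, where 17.4% and 17.2% of all genes were higher and 14.9% and 12.8% lower. That list was taken from the study and holds *Vegfa*, a member, so it is not independent of the members.

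The lipid droplet genes next to *Hilpda* differed in both directions. In neutrophil-like cells 4 of 14 were at least 2-fold higher in tendon than in blood and 4 as much lower, where 17.4% and 14.9% of all genes were. *G0s2*, the other inhibitor of *Pnpla2*, went from 195 CPM [181, 210] in blood to 3199 CPM in tendon (4.03 [3.92, 4.15]), and the droplet coat gene *Plin2* from 73.4 to 784 CPM (3.42 [3.23, 3.61]). *Fabp4* was higher at 6.39, from 1 blood UMI. The lipase *Pnpla2* itself was lower, 93.2 CPM in blood and 43.2 CPM in tendon (-1.11 [-1.45, -0.78]), as were the droplet gene *Plin5* (-3.56 [-8.93, -0.90], from 1 tendon UMI), hormone-sensitive lipase *Lipe* (-1.60 [-2.39, -0.88]) and *Mgll* (-1.56 [-2.33, -0.85]). In monocyte/macrophage-like cells *Plin2* was higher (2.03 [1.95, 2.11]) together with *Fabp5* (3.26) and *Mgll* (3.30, from 1 blood UMI), while *G0s2* was at 10.8 CPM in tendon and 14.4 CPM in blood. *Fabp4* (-2.40 [-2.52, -2.28]) and the triglyceride synthesis gene *Dgat2* (-1.23) were lower there.

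Ligand and receptor genes were measured thinly in neutrophil-like cells, where 0 of 4 other VEGF ligands and 2 of 8 receptor genes had 20 UMIs, with *Ramp1* lower in tendon (-1.28 [-1.73, -0.86]). In monocyte/macrophage-like cells *Vegfb* (3.73 [2.73, 4.95]), *Pgf* (3.44, from 1 blood UMI) and the coreceptors *Nrp2* (4.71 [4.20, 5.26]) and *Nrp1* (2.25 [2.13, 2.38]) were higher in tendon. The receptor *Kdr* was at 2.49 [0.52, 5.60], from 2 blood UMIs. *Flt1*, another receptor for VEGFA, and *Ramp1* were lower (-3.18 [-3.86, -2.54] and -1.38), and *Vegfc* had 30 UMIs in blood and 0 in tendon.

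The members did not share one pattern. Over the 17 named classes of at least 50 cells, the log2(CPM + 1) of *Hif1a* and *Vegfa* followed that of *Hilpda* with a Pearson r of 0.65 and 0.64, *Ndrg1* and *Adm* with 0.43, *Bnip3* with 0.36, *Egln1* with 0.35, *Egln3* with 0.14 and *Ero1l* with 0.02. Of the 12465 genes compared, those most like *Hilpda* were *Tgif1* (0.95), *Ccnl1* (0.93), *Nt5dc3* (0.92), *Zfp131* (0.92) and *Ppp1r15a* (0.91). The 17 points come from 3 libraries, share their depth and preparation within each, and 8 of them are tendon classes, so a gene raised across the tendon library ranks high.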

How the data were processed

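The authors deposited raw UMI counts per gene and cell for 3 libraries, made with Cell Ranger (version 5.0.1 in the file headers) on mm10 and holding called cells only. Sources used here do not give the annotation version. Barcodes with under 200 genes or over 20% mitochondrial UMIs were dropped (15, 57 and 651 in marrow, blood and tendon), as were the highest Scrublet scores at 0.8% per 1000 cells (27, 38 and 198, since the automatic threshold marked 11, 31 and 0). Each library was clustered alone in scanpy 1.11.5 (2000 variable features without the genes reported here, 30 components, 15 neighbors, Leiden resolution 1.0). A cluster was named for the class with the highest marker score, which required at least 3 markers up and a lead of 0.5 in score. Meeting both did not suffice. A marrow cluster of 75 cells stayed unnamed with 9 markers up and best scores of 4.16 and 2.07. So did the tendon cluster of 192 cells, with 16 markers up and scores of 3.33 and 2.57. Seurat 5.3.0 gave an integrated alternative.

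Counts were summed per class, and scaled to 1000000 UMIs. Intervals are exact at 95% (Poisson for levels, binomial for ratios, scipy 1.17.1). A ratio was counted from 20 UMIs in both groups together, with 0 set to 3 counts. The interval code was tested on simulated data. Kept libraries had median depths of 22893, 8360.5 and 12177.5 UMIs per cell. No p-values were computed because there is 1 library per tissue, and the number of mice behind each was not stated. The members and gene lists were chosen with earlier results of these data known, and the naming rule and the cluster comparisons were set once the clusters were known. Named genes are all 9 members, the 3 largest ratios in each direction of each list (printed where past 2-fold, with others where a result turns on them), the 5 genes most like *Hilpda*, the 5 leading genes of tendon neutrophil- and monocyte/macrophage-like clusters, and markers.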

Additional observations from a re-analysis of the deposited data

Results flagged for a closer look

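*Egln1*, the main prolyl hydroxylase acting on HIF, lay on opposite sides of 0 in the 2 myeloid classes when tendon was set against blood, with a log2 ratio of 0.67 in neutrophil-like cells (60 and 61 UMIs) and -0.011 in monocyte/macrophage-like cells (885 and 313 UMIs). With 1 library per tissue the difference between the classes was not tested. The interval of the second value, -0.20 to 0.18, covers 0, and under 4 of 11 other ways of processing it was on the other side of 0, within a range from -0.26 to 0.08. In neutrophil-like cells the value ranged from 0.43 to 0.76. Counted as UMIs per cell, *Egln1* was lower in tendon in both classes. It was at 0.107 in 560 tendon and 0.158 in 387 blood neutrophil-like cells. In monocyte/macrophage-like cells it was at 0.533 in tendon and 0.703 in blood. Within the tendon the *Ly6g* cluster of neutrophil-like cells had 9 *Egln1* UMIs and a log2 ratio to blood of -0.29 [-1.49, 0.72].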

How the results depend on the processing

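No paired analysis was possible because each tissue has 1 library, all with the same replicate number, and no test was run. Alternatives to the cell filter, doublet removal, clustering, naming, variable features, weighting and count minimum gave 80 values for the main comparisons, of which 70 stayed close to those reported, 10 moved and 0 reversed. Close meant inside the counting interval of the reported value, or within a factor of 1.5 for counts of members or other genes. A value with a wide interval could therefore hardly move. Blood and tendon neutrophil-like cells numbered 387 and 560 at each Leiden resolution, so their values could hardly differ there. The log2 ratio of *Hilpda* between tendon neutrophil-like and monocyte/macrophage-like cells (1.13 as reported) was 1.54 with at least 500 genes and at most 10% mitochondrial UMIs, 1.42 with no filter, 1.66 with no doublets removed, 1.53 and 1.77 at Leiden resolutions of 0.5 and 2.0, 0.99 after Seurat integration, 1.90 when genes named here could be variable features, and 2.27 when centred on the median of all genes. The share of tendon *Hilpda* UMIs in neutrophil-like cells (9.03%) was 9.98% with no doublets removed and 28.4% with each cell weighted equally. Centring subtracts the median of all genes from each ratio. Equal weighting replaces the share of UMIs by a share of summed per-cell fractions, in which shallow cells count for more. The cause of the other shifts was not tested. The tendon to blood ratio of *Hilpda* in neutrophil-like cells stayed between 9.04 and 9.66. Single member values stayed close in 182 cases and moved in 82. A change of sign was counted as reversed only for log2 ratios of at least 1 in size. Adding the separate and unnamed tendon clusters to the monocyte/macrophage-like cells, an alternative chosen after seeing the data, left *Hilpda* at 5.02 and the count of members at 6. Leaving out the clusters with most *Egln3* UMIs was also chosen after seeing the data. Shares of cells with a *Hilpda* UMI at 500 and 2000 UMIs were 18.9% and 37.8% in neutrophil-like and 8.02% and 24.3% in monocyte/macrophage-like cells. Centring was not run for the share of UMIs, on which it has no effect. Values rest on few UMIs for *Hilpda* in blood and marrow neutrophil-like cells, *Adm* in all myeloid cells and *Vegfa* in blood. Neutrophil-like cells held more UMIs in all in blood (3625900) and marrow (15064049) than in tendon (2243633).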

Other observations

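Basophil/mast-like cells were few in every library (34 in marrow, 35 in blood and 47 in tendon). *Ndrg1* was at 174 CPM [125, 236] in those of the blood, 153 CPM [108, 210] in those of the tendon and 28.2 CPM [19.2, 40.0] in those of the marrow. *Ero1l* was at 148 CPM [103, 206] in blood, 61.9 CPM in tendon and 50.1 CPM in marrow, the highest level of any blood class for both genes. The blood and marrow cells carried basophil genes such as *Mcpt8*, and the tendon cells mast cell proteases such as *Mcpt4* and *Cma1*. The tendon cluster also led with *Gzma*, *Gzmb*, *Nkg7*, *Xcl1* and *Ccl5*. Its marker score was 5.85 for basophil/mast and 3.82 for NK, the second class. The part of NK-like cells in its levels was not tested.

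Among tendon endothelial-like cells, 32 cells led by *Ccl21a*, *Flt4*, *Prox1* and *Lyve1*, genes known from lymphatic vessels, held *Ndrg1* at 369 CPM [324, 419], and the other 260 cells at 131 CPM [123, 139]. *Hilpda* was lower in the former, at 29.2 CPM [17.6, 45.7] against 56.4 CPM [51.2, 61.9]. These clusters were picked after their values were seen.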
